A study of Mus musculus with 4 samples.

Results

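The cytochrome P450 genes and the glutathione transferase genes were read in mouse mammary tumours induced with the carcinogen DMBA, together with genes of the aryl hydrocarbon receptor (AhR) and the epoxide hydrolase gene Ephx1. Members were all genes with a probe set of a single gene symbol that began with Cyp and a digit, or with Gst and a class letter from a, m, p, t, o or z, plus Ahr, Arnt, Ahrr, Tiparp, Nqo1, Ephx1 and Por. Por had no such probe set and was not analysed here. A total of 86 genes with 112 probe sets were measured among 12393 genes on the array, and the probe set with the highest mean signal stood for each gene. A gene was kept when its signal exceeded that of the brightest of 27 probe sets for bacterial sequences, here the background range, on at least 1 array. This left 58 members, or 67.4% of the 86, against 11234 genes or 90.6% of all genes.

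The tumours came from female nulliparous FVB mice, either wild-type (WT) or carrying MMTV-PAX8PPARg, a fusion of the transcription factor PAX8 with the nuclear receptor PPARg behind a viral promoter that is active in mammary epithelium. All mice had received 15 mg of the progestin MP (Depo-Provera) and 4 weekly doses of 1 mg DMBA by gavage, so no array shows tissue from mice without the carcinogen. The ages of the age-matched mice are not given. From the day after the last dose they carried 60-day release pellets with placebo or with 2.5 mg RU486 (mifepristone), which blocks progesterone and glucocorticoid receptors, and the pellets were renewed after 60 days. RU486 thus began after the last DMBA dose, and no array shows expression at the time of the doses. Both genotypes under both pellets gave 4 groups, each measured on 1 array with RNA pooled from 5 mice. The spread between mice is therefore unknown, a difference between single arrays has no test and precision is limited by having 4 arrays.

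The top of the background range, the highest bacterial control signal, was a signal of 9.6 for WT placebo and 18.5 for WT RU486. It was 8.3 for PAX8PPARg placebo and 35.3 for PAX8PPARg RU486, so a signal within the range of an RU486 array can be brighter than a signal above the range of a placebo array. The hybridisation spike-in probe sets, relative to WT placebo, were at 1.59 on WT RU486, 1.0 on PAX8PPARg placebo and 2.43 on PAX8PPARg RU486, and the part of this in the ranges was not tested. The trimmed mean signal was 500.2 on each array after rounding. The tissue label was checked against markers: luminal epithelial genes were above the background range in 13 of 13 cases on each array but WT RU486, where Cldn4 and Elf3 were within it and the summed signal of the list was 6485 against 37811 to 44110 on the other arrays. Of 11 hepatocyte genes, 4 to 9 were within the background range and the summed signal was 198 to 663. Differences below are of log2(signal + 16) after the median of each array was subtracted, and a member is called higher or lower past 2-fold, a difference of 1 on that scale.

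P450 enzymes are haem monooxygenases of the endoplasmic reticulum or the mitochondrion that oxidise steroids, fatty acids, vitamins, drugs and pollutants, and many of the CYP2 and CYP3 enzymes are best known from liver. AhR is a transcription factor that binds planar hydrocarbons, pairs with ARNT and switches on Cyp1a1, Cyp1a2, Cyp1b1, Nqo1 and its own repressors Ahrr and Tiparp. DMBA is known to be activated by CYP1B1 and the microsomal epoxide hydrolase EPHX1 to a diol epoxide that binds DNA, and glutathione transferases join reactive products of this kind, and of lipid peroxidation, to glutathione.

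The promoters of 4 AhR target genes are shown because their signals, given further on, differed from each other across the arrays. Each run is the 250 bases before the RefSeq gene start (build GRCm38.p6), read on the strand of the gene, with the xenobiotic response element core GCGTG, or its reverse complement CACGC, in capitals.
Cyp1b1, chr17:79715062-79715311, minus strand: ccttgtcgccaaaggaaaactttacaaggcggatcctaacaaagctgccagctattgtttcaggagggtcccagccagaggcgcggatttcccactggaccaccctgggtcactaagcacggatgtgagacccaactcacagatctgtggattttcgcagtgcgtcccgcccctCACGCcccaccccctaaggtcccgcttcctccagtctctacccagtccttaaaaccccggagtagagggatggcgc
Ahrr, chr13:74292332-74292581, minus strand: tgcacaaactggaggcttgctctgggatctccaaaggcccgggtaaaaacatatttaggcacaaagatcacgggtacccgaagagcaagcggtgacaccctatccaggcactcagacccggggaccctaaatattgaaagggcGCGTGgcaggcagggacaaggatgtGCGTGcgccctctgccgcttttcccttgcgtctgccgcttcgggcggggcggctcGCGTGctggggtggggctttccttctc
Tiparp, chr3:65528197-65528446, plus strand: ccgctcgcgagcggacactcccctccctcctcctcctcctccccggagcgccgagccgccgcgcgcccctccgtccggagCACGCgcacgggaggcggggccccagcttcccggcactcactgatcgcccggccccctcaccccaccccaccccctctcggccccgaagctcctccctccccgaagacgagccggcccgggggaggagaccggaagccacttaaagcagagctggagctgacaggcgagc
Nqo1, chr8:107403206-107403455, minus strand: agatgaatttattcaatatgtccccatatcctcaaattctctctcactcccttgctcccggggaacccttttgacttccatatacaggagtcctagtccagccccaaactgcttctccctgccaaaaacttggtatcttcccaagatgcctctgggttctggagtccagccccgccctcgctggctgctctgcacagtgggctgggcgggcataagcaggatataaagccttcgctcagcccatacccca
The core stood 1 time in the Cyp1b1 window, 3 times in Ahrr, 1 time in Tiparp and 0 times in Nqo1. Of the 58 members, 47 had a RefSeq promoter entry, and 16 of them (34.0%) held the core on either strand, against 30.9% of all 27025 genes in the promoter table. The antioxidant response element core TGACNNNGC, through which the stress factor NRF2 acts, was in 6 of 47 (12.8%) against 11.5% of all genes, and the consensus DR1 element of PPAR dimers, searched without mismatch, was in 0 of 47 against 0.0407%. All shares count both strands of the 250 bases, and overlapping matches were counted. These letters describe the windows and say nothing of binding.

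Members were more often past 2-fold than genes in general in 6 of the 8 combinations of comparison and direction, most of all among genes higher in PAX8PPARg than in WT tumours under RU486. In WT, 10 of 58 members (17.2%) were lower with RU486, where 9.79% of all genes were, and 3 (5.17%) were higher, where 8.20% of all genes were. Of these, Cyp2c38 was within the background range on WT placebo, and Gsta2 and Gsta3 on WT RU486. In PAX8PPARg, 9 members (15.5%) were lower with RU486 against 7.81% of all genes, and 8 (13.8%) were higher against 9.93%, of which Cyp46a1 was within the background range on both arrays. With the arrays not centred, that split was 5 higher (8.62%, against 7.92% of all genes) and 10 lower (17.2%, against 9.61%), while the medians of all genes moved from 0.09 to -0.04 in this comparison and from -0.13 to 0.06 for genotype under placebo.

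Between genotypes, 6 members (10.3%) were higher in PAX8PPARg than in WT under placebo against 4.79% of all genes, and 6 (10.3%) were lower against 6.05%. Among the lower members, Cyp2d10 (-1.01) was kept only because it exceeded the background range on WT placebo, the brighter array of this comparison. Without centring the split was 8 higher (13.8%, against 6.62% of all genes) and 5 lower (8.62%, against 4.29%). Under RU486, 16 members (27.6%) were higher in PAX8PPARg against 11.4% of all genes, and 2 (3.45%) were lower against 11.2%. Of the 16, Cyp2c68 was within the background range on both arrays. Gsta2, Gsta3, Cyp2b19 and Cyp2c50 were within it on WT RU486, so the sizes of their differences are not exact. On PAX8PPARg RU486, Gsta2 (42.3), Cyp2b19 (37.7) and Cyp2c50 (44.6) were also not far above the top of the range, 35.3. In the same comparison 13 of 13 luminal markers (median 3.73) and 10 of 10 keratinized markers (median 4.66) were higher past 2-fold, and 12 of 12 macrophage markers were lower (median -2.21). Their part in the member counts was not tested. The comparisons with a shared array are not independent: the WT RU486 array, for instance, enters the first and the last of these.

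**Figure D1:**
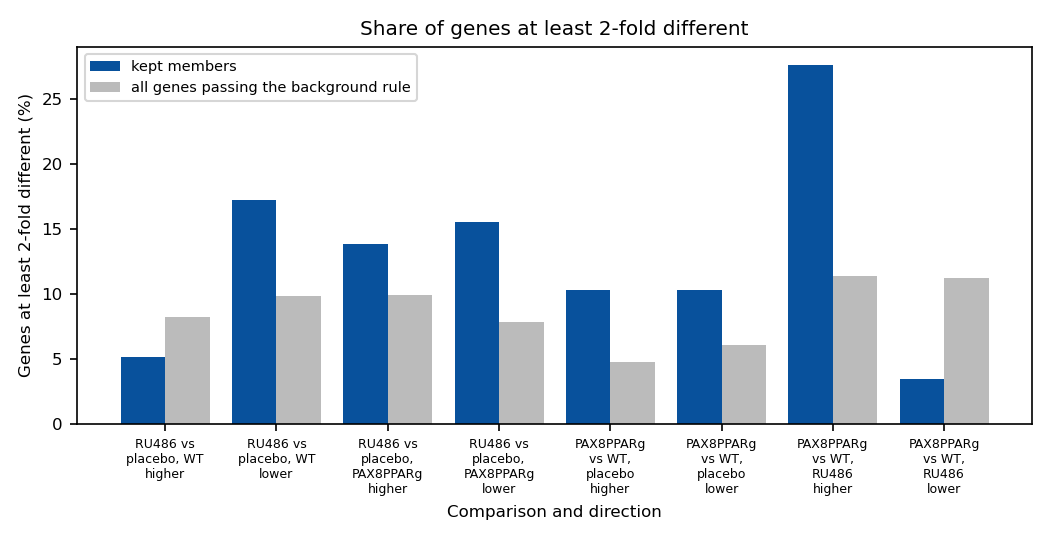
Share of genes (%, vertical axis) at least 2-fold higher or lower in each of the 4 comparisons (horizontal axis), for the 58 kept members (blue bars) and for all 11234 genes that passed the same background rule (grey bars). The highest pair of bars contrasts 27.6% of members with 11.4% of all genes, for genes higher in PAX8PPARg than in WT under RU486.

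The median difference of the members was -0.35 for RU486 in WT (all genes -0.02), 0.00 for RU486 in PAX8PPARg (all genes 0.09), -0.02 for genotype under placebo (all genes -0.13) and 0.38 for genotype under RU486 (all genes 0.00).

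**Figure D2:**
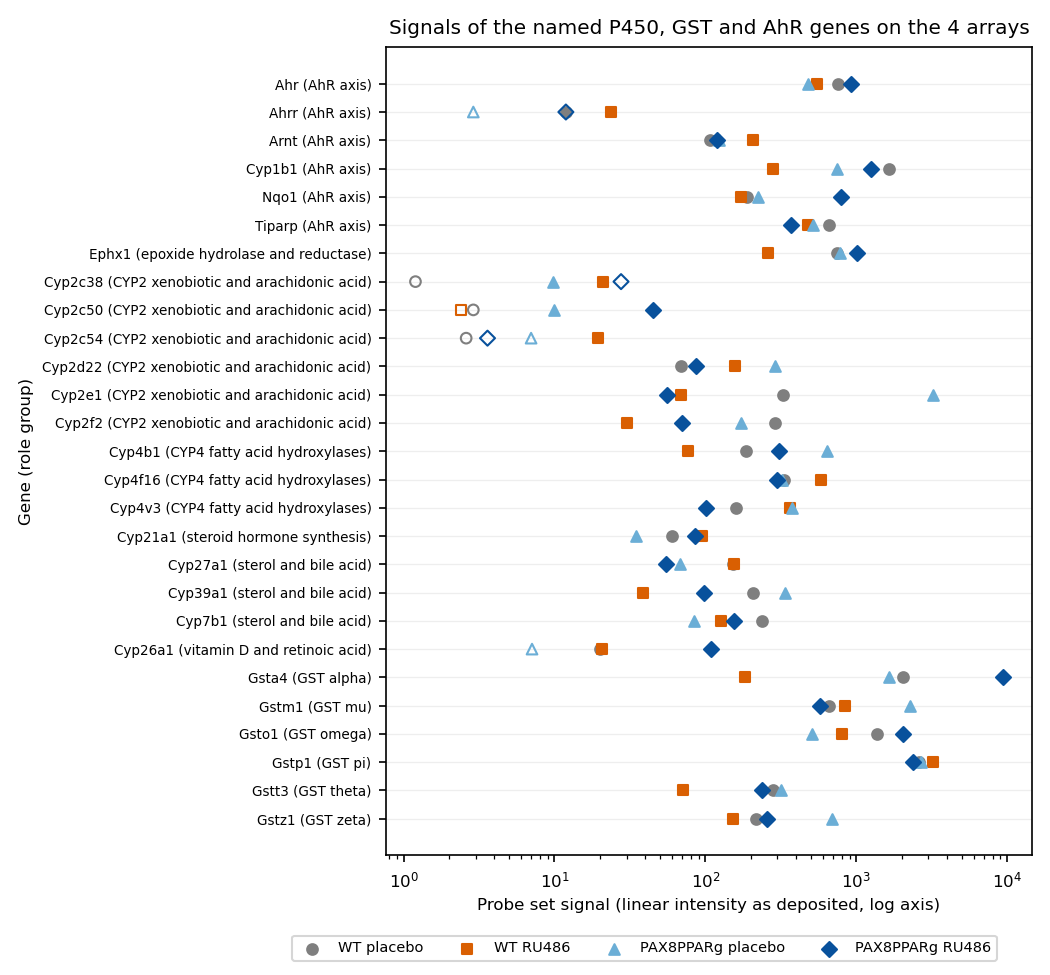
Probe set signal (horizontal log axis, linear intensity units as deposited) of the 27 members picked by the naming rule, 1 row per gene with its role group, on each of the 4 arrays (marker shape and colour). Open markers lie within the background range of their array. Gsta4 runs from 182.8 on WT RU486 to 9301.8 on PAX8PPARg RU486, and Cyp2e1 from 55.4 on PAX8PPARg RU486 to 3198.5 on PAX8PPARg placebo.

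In the AhR group, the carcinogen-activating enzyme gene Cyp1b1 was far lower in the WT RU486 pool, while the receptor gene itself differed little there. Cyp1b1 read 1641.5 on WT placebo, 278.1 on WT RU486, 744.8 on PAX8PPARg placebo and 1257.1 on PAX8PPARg RU486. The difference between RU486 and placebo was -2.49 log2 in WT and 0.88 in PAX8PPARg, so RU486 went with a lower signal in 1 genotype and with a higher one in the other. A second Cyp1b1 probe set above the background range on all arrays gave -2.86 and 1.04 for the same comparisons. On the WT RU486 array 12 of 13 luminal epithelial markers were also lower past 2-fold, with a median of -3.66, and their part in the Cyp1b1 result was not tested. In tissue pools, fewer cells of a type and less RNA per cell cannot be told apart.

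Ahr, the receptor, read 749.7 on WT placebo, 545.3 on WT RU486, 480.4 on PAX8PPARg placebo and 927.7 on PAX8PPARg RU486. Its RU486 difference was -0.45 in WT and 1.06 in PAX8PPARg, the latter just past 2-fold, and 0.77 by its other probe set. It was below 2-fold without centring (0.93), with the probe sets averaged (0.91) and with a pseudocount of 64 (0.97). Arnt, the partner of AhR, read 107.5, 205.2, 123.3 and 118.6 in the same order of arrays, highest on WT RU486. Its RU486 difference in WT was 0.84, and 1.12 by its other probe set, which was within the background range on PAX8PPARg RU486. Ahr and Arnt thus had different orders over the arrays.

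Among the targets, Nqo1, a quinone reductase controlled by both AhR and NRF2, had 188.5 on WT placebo, 170.9 on WT RU486, 223.0 on PAX8PPARg placebo and 789.9 on PAX8PPARg RU486. A single array was high and the other arrays were close together. The difference was 1.89 for RU486 in PAX8PPARg and 2.05 for genotype under RU486, against -0.13 for RU486 in WT and 0.03 for genotype under placebo. Tiparp, an ADP-ribosyltransferase that restrains AhR, stayed within 2-fold throughout, with signals of 661.8, 477.5, 516.2 and 368.4 in the same order. Its other probe sets also stayed within 2-fold, but for RU486 in PAX8PPARg they gave 0.48 and 0.22 against -0.34. The order of Tiparp over the arrays therefore depends on the probe set. Ahrr, the AhR repressor, read 12.0, 23.6, 2.9 and 11.9, of which both PAX8PPARg values were within the background range. The textbook AhR targets Cyp1a1 and Cyp1a2 did not exceed the background range on any array, at 4.0 to 6.5 and 0.4 to 2.3, and were dropped. With RU486 in WT, Cyp1b1 was thus lower (-2.49) while Nqo1 (-0.13) and Tiparp (-0.46) stayed within 2-fold, though all are AhR targets.

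A list of other AhR targets gave no common direction. Of 5 measured genes, 3 were lower and 1 was higher past 2-fold with RU486 in WT, and 2 were higher and 0 lower in PAX8PPARg. Among all genes, 9.79% were lower and 8.20% higher in WT, and 9.93% were higher and 7.81% lower in PAX8PPARg. Aldh1a3, a retinaldehyde dehydrogenase, read 156.0 on WT placebo, 26.5 on WT RU486, 410.2 on PAX8PPARg placebo and 596.1 on PAX8PPARg RU486. Aldh3a1, a further aldehyde dehydrogenase, read 117.5, 177.0, 25.5 and 92.9 in that order. The low array was WT RU486 for Aldh1a3 and PAX8PPARg placebo for Aldh3a1.

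Ephx1, the microsomal epoxide hydrolase that acts with CYP1B1 on DMBA, had its low value on the same array as Cyp1b1. It read 745.0 on WT placebo, 258.9 on WT RU486, 781.5 on PAX8PPARg placebo and 1016.3 on PAX8PPARg RU486. The RU486 difference was -1.47 in WT and 0.51 in PAX8PPARg. The genotype difference was 1.85 under RU486 and -0.12 under placebo. With RU486 in WT, 12 of 13 luminal markers were lower past 2-fold as well (median -3.66). Their part in the Ephx1 result was not tested.

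**Figure D3:**
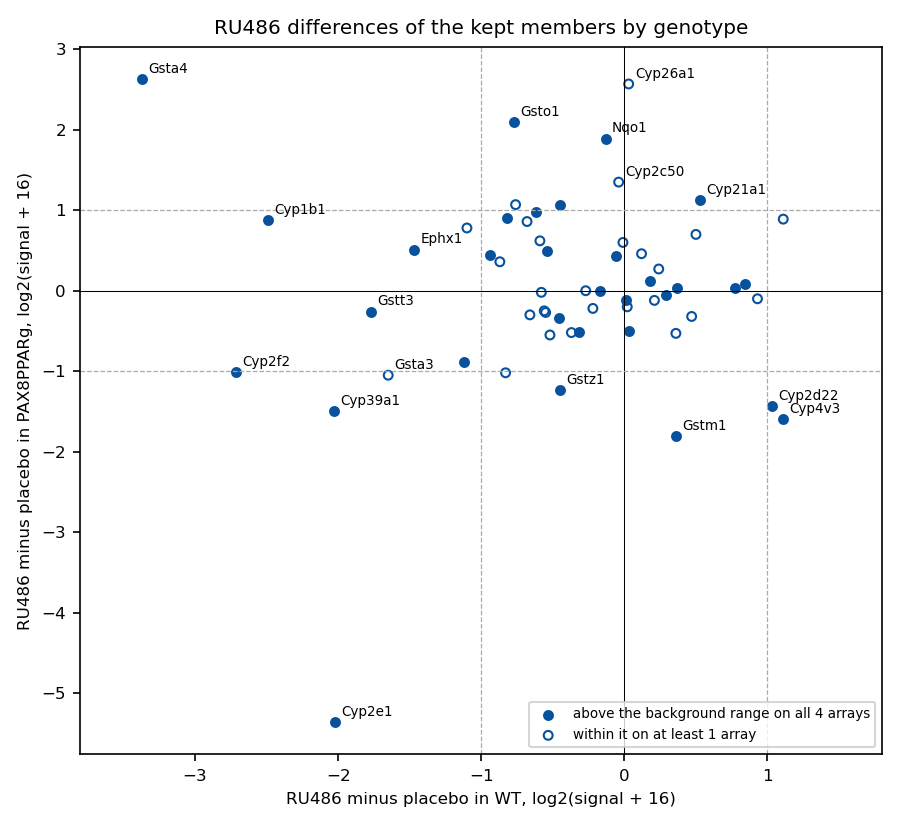
Difference of RU486 minus placebo in WT (horizontal axis) against that in PAX8PPARg (vertical axis), both on log2(signal + 16), for the 58 kept members. Filled points were above the background range on all 4 arrays, open points were within it on at least 1, and dashed lines mark 2-fold. Gsta4 lies at -3.37 and 2.63, Cyp2e1 at -2.02 and -5.36, and Cyp4v3 at 1.11 and -1.60.

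In the CYP2 family, which oxidises drugs, solvents and arachidonic acid, Cyp2e1 and Cyp2f2 were lower with RU486 in both genotypes. Of 31 CYP2 genes measured, 16 were kept. Past 2-fold with RU486, 2 were higher and 2 lower in WT, and 1 was higher and 4 lower in PAX8PPARg. Of all genes, 8.20% were higher and 9.79% lower in WT, and 9.93% and 7.81% in PAX8PPARg. Between genotypes, 2 were higher and 1 lower in PAX8PPARg under placebo, and 3 were higher and 0 lower under RU486. The shares of all genes there were 4.79% and 6.05% under placebo, and 11.4% and 11.2% under RU486.

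Cyp2e1, which oxidises ethanol and small solvents, read 327.4 on WT placebo, 68.6 on WT RU486, 3198.5 on PAX8PPARg placebo and 55.4 on PAX8PPARg RU486. The PAX8PPARg placebo pool stood far above the other arrays, and both RU486 pools were low. The RU486 difference was -2.02 in WT and -5.36 in PAX8PPARg, and the genotype difference was 3.04 under placebo and -0.30 under RU486. Adipocyte markers had the same high array, with a summed signal over 12 genes of 12851, 5470, 37350 and 4832 in the same order. With RU486, 12 of 12 adipocyte markers were lower past 2-fold in PAX8PPARg (median -3.53) and 5 of 12 in WT (median -0.93). On the PAX8PPARg RU486 array 4 adipocyte markers were within the background range, among them Lep and Pparg. Their part in the Cyp2e1 result was not tested.

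Cyp2f2, known for oxidising naphthalene in mouse airway cells, read 288.0 on WT placebo, 30.4 on WT RU486, 173.0 on PAX8PPARg placebo and 69.5 on PAX8PPARg RU486. Its RU486 differences were -2.71 in WT and -1.01 in PAX8PPARg, the latter -0.72 with a pseudocount of 64. Cyp2d22, proposed as the mouse counterpart of the human drug-metabolising gene CYP2D6, had another order, with 69.0, 157.5, 287.5 and 86.9. It was higher with RU486 in WT (1.03) and lower in PAX8PPARg (-1.43), and its other probe set gave 1.20 and -2.11. On the PAX8PPARg RU486 array the other probe set did not exceed the background range. The WT difference of Cyp2d22 no longer reached 2-fold under quantile normalization or with a pseudocount of 64.

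The remaining CYP2 genes were mostly dim. Cyp2j6 read 92.0, 106.0, 106.4 and 104.9. It was the 1 member above the background range on all arrays that stayed within 0.3 log2 in all 4 comparisons. Regardless of background, 3 of 58 members (5.17%) and 8.0% of all genes did so. Cyp2j9, a relative of Cyp2j6, was lower with RU486 in PAX8PPARg by a difference of -1.02, from a signal of 101.1 to 36.6. Cyp2c50 exceeded the background range on the PAX8PPARg arrays alone, at 10.0 under placebo and 44.6 under RU486, and it was below 2-fold with a pseudocount of 64. Cyp2b19, a gene known from keratinocytes, read 14.5, 3.0, 16.5 and 37.7, of which the WT RU486 value was within the background range. Cyp2s1 read 42.2, 42.9, 43.6 and 31.4 and stayed within 2-fold. Cyp2b9, Cyp2c55, Cyp2c68, Cyp2d9 and Cyp2j13 exceeded the range of the PAX8PPARg placebo array alone, where it is narrowest, and Cyp2c68 and Cyp2j13 were brighter on PAX8PPARg RU486 (22.5 and 23.0) than there (14.8 and 12.2). Likewise, Cyp2b9 was brighter on WT RU486 (13.3) than on PAX8PPARg placebo (11.9). Cyp2d10 exceeded the range on WT placebo alone (20.1). Cyp2c38 (1.2, 21.0, 9.8 and 27.6) and Cyp2c54 (2.6, 19.4, 7.0 and 3.6) lay at or near the background range on every array, so the sizes of their differences are not exact. Over the top of the WT placebo background range, Cyp2c38 on WT RU486 stood 2.19-fold and Cyp2c54 2.02-fold. The range of WT RU486 itself reached 18.5, so these ratios are not lower bounds of a difference.

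CYP3 genes, which hold the main drug oxidases of liver, were at or within the background range. Of 5 measured, 2 were kept, Cyp3a13 and Cyp3a44, and each exceeded the range of 1 array, at 12.5 on WT placebo and 13.3 on PAX8PPARg placebo, while Cyp3a44 read 16.1 within the wider range of PAX8PPARg RU486. Neither differed past 2-fold in any comparison. In all, 14 of the 58 kept members exceeded the range on a single array, and 31 did so on all 4. Among the 11234 genes that passed the same rule, 9023 exceeded it on all 4, a larger share than of the members.

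Among the CYP4 genes, which hydroxylate fatty acids at the end of the chain, Cyp4v3 and Cyp4b1 differed most. Of 10 measured, 6 were kept, with 1 higher and 1 lower past 2-fold for RU486 in WT, and 0 higher and 1 lower in PAX8PPARg. The shares of all genes were 8.20% higher and 9.79% lower in WT, and 9.93% and 7.81% in PAX8PPARg. Cyp4v3 read 159.6 on WT placebo, 362.1 on WT RU486, 372.3 on PAX8PPARg placebo and 100.6 on PAX8PPARg RU486. RU486 thus went with a higher signal in WT (1.11) and a lower one in PAX8PPARg (-1.60), and its second probe set gave 0.84 and -1.17. The WT difference of Cyp4v3 was below 2-fold with the probe sets averaged or with a pseudocount of 64.

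Cyp4b1, which also activates furans and aromatic amines, read 184.5, 76.3, 641.9 and 307.5 in the same order. Both PAX8PPARg pools were above both WT pools, with a genotype difference of 1.52 under placebo and 1.75 under RU486. Cyp4f16, a relative of the leukotriene hydroxylases, was highest on WT RU486, at 580.2 against 299.2 to 332.8 elsewhere. On that array 12 of 12 macrophage markers were higher past 2-fold than on WT placebo, with a summed signal of 52095 against 12745 to 14488 on the other arrays. Cyp4f13 stayed within 2-fold (47.8 to 83.1), and Cyp4a12a and Cyp4f18 each exceeded the background range on 1 array, at 10.1 and 34.1. The part of the macrophage markers in the Cyp4v3, Cyp4f16 and Arnt values was not tested.

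Genes of steroid hormone synthesis were mostly within the background range. Cyp11a1, the first enzyme of the pathway, read 13.8, 2.8, 10.6 and 3.7, and Cyp17a1 read 9.0, 0.9, 9.5 and 3.6, each within the range on at least 2 arrays. Cyp21a1, the steroid 21-hydroxylase, read 60.4 on WT placebo, 94.3 on WT RU486, 34.9 on PAX8PPARg placebo and 85.3 on PAX8PPARg RU486. It was higher with RU486 in PAX8PPARg (1.13) and by less than 2-fold in WT (0.53). The PAX8PPARg difference was below 2-fold without centring, under quantile normalization and with a pseudocount of 64.

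Among the sterol and bile acid enzymes, Cyp7b1 and Cyp51 were lowest in the PAX8PPARg placebo pool. Of 7 measured, 6 were kept, and 3 were lower in PAX8PPARg than in WT under placebo, with 0 higher and a median of -1.08. Of all genes, 6.05% were lower and 4.79% higher in that comparison. Cyp7b1, an oxysterol hydroxylase, read 235.4 on WT placebo, 126.8 on WT RU486, 83.8 on PAX8PPARg placebo and 155.3 on PAX8PPARg RU486, with a genotype difference of -1.52 under placebo. Cyp51, the lanosterol demethylase of cholesterol synthesis, had the same order with 1006.3, 649.4, 491.8 and 900.0 and a difference of -1.20. The other Cyp51 probe sets gave -0.83 and -0.53, below 2-fold, and the dimmer of them (51.8, 80.2, 37.4 and 76.2) was highest on WT RU486. Cyp27a1, the mitochondrial sterol hydroxylase, was instead lower in PAX8PPARg under both treatments, at 153.3 and 153.8 in WT against 68.0 and 54.8, with differences of -1.20 and -1.32 that were below 2-fold with a pseudocount of 64. Cyp8b1, a bile acid hydroxylase, exceeded the background range on PAX8PPARg placebo alone (9.1).

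Cyp39a1, a hydroxylase of oxysterols, was lower with RU486 in both genotypes. It read 207.7 on WT placebo, 38.7 on WT RU486, 338.2 on PAX8PPARg placebo and 98.4 on PAX8PPARg RU486, with differences of -2.03 and -1.50. Both placebo pools were above both RU486 pools. Cyp46a1, the cholesterol hydroxylase of neurons, read 23.8, 7.5, 7.3 and 28.5, of which only the first exceeded the background range of its array, and Cyp7a1, the first enzyme of bile acid synthesis in liver, was dropped.

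For the vitamins, Cyp26a1, which breaks down retinoic acid and is induced by it, stood out on the PAX8PPARg RU486 array. It read 20.0 on WT placebo, 20.7 on WT RU486, 7.1 on PAX8PPARg placebo and 108.8 on PAX8PPARg RU486. The PAX8PPARg placebo value was within the background range, and the signal under RU486 was 13.1-fold the top of that range. The range of the PAX8PPARg RU486 array itself reached 35.3, and the signal was 3.08-fold that. Cyp24a1, which breaks down vitamin D, read 11.2, 2.2, 23.5 and 19.4 and was within the range on both RU486 arrays.

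The alpha class of glutathione transferases was lower with RU486 in WT in 3 of 3 kept genes, and higher in PAX8PPARg than in WT under RU486 in 3 of 3. Of all genes, 9.79% were lower in the former comparison and 11.4% higher in the latter. For Gsta2 the size in WT is not measured, since its WT RU486 signal was within the background range and the bound is 1.17-fold. Gsta4, which conjugates the lipid peroxidation product hydroxynonenal, read 2047.1 on WT placebo, 182.8 on WT RU486, 1637.9 on PAX8PPARg placebo and 9301.8 on PAX8PPARg RU486. The RU486 difference was -3.37 in WT and 2.63 in PAX8PPARg, in opposite directions, and the genotype difference under RU486 was 5.49. Gsta4 was measured by 1 probe set. Gsta3, known for its action on aflatoxin epoxide in mice, read 72.4, 12.1, 142.3 and 53.5 in the same order and was lower with RU486 in both genotypes, by at least 3.91-fold in WT, where the RU486 value was within the background range, and by -1.05 log2 in PAX8PPARg. Gsta2, a further alpha class gene, read 21.7, 1.6, 21.2 and 42.3, the second within the background range. Its PAX8PPARg RU486 signal was 2.29-fold the top of the WT RU486 range, but the PAX8PPARg RU486 range itself reached 35.3.

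Keratinized epithelial markers had the same lowest and highest array as Gsta4. Their summed signal over 10 genes was 6294 on WT placebo, 231 on WT RU486, 1051 on PAX8PPARg placebo and 11226 on PAX8PPARg RU486, and 8 of the 10 were within the background range on WT RU486. They differ from Gsta4 on the PAX8PPARg placebo array, where 10 of 10 markers were lower past 2-fold than on WT placebo (median -2.39) and Gsta4 differed by -0.51. The part of these cells in the values of Gsta4, Nqo1 and Cyp26a1 was not tested. Nor was that of luminal cells, whose markers were also low on WT RU486, in the alpha class values.

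**Figure D4:**
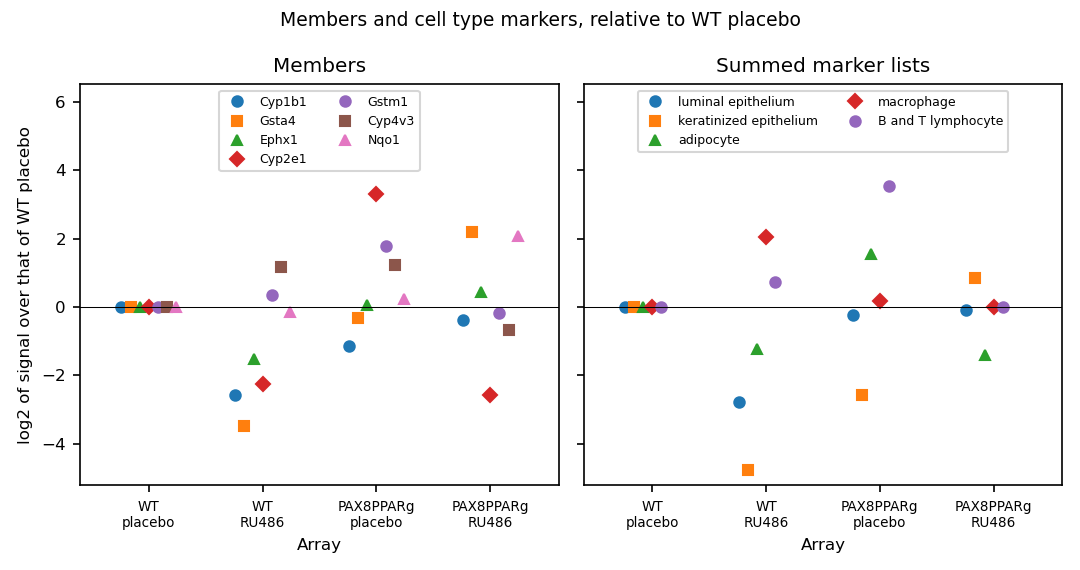
Signals of 7 members (left) and summed signals of 5 cell type marker lists (right) on each array (horizontal axis), as log2 of the signal over that of the WT placebo array (vertical axis). Each point is 1 array with no error. Cyp2e1 and the adipocyte list are both highest on PAX8PPARg placebo, and Gsta4 and the keratinized list are both lowest on WT RU486 and highest on PAX8PPARg RU486.

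In the mu class, Gstm1 was highest in the PAX8PPARg placebo pool, and Gstm5 and Gstm7 in the PAX8PPARg RU486 pool. All 6 kept mu genes lie on chromosome 3, and of 7 measured only Gstm6 was dropped. Gstm1, a main mu class enzyme for hydrocarbon epoxides, read 656.3 on WT placebo, 843.6 on WT RU486, 2264.5 on PAX8PPARg placebo and 576.2 on PAX8PPARg RU486. It was high in the PAX8PPARg placebo pool, with a genotype difference of 1.57 there and an RU486 difference of -1.81 in PAX8PPARg. In these comparisons 9 of 12 adipocyte and 11 of 11 B and T lymphocyte markers were higher in PAX8PPARg under placebo (medians 2.59 and 2.83), and 12 of 12 and 11 of 11 were lower with RU486 in PAX8PPARg (medians -3.53 and -3.24). Their part in the Gstm1 result was not tested. Gstm5, known from brain and testis, read 507.2, 256.1, 675.9 and 846.3, and Gstm7 read 50.4, 29.5, 106.4 and 140.6, in the same order over the 4 arrays. Gstm2 stayed within 2-fold in all 4 comparisons, at 364.0, 287.5, 561.6 and 354.1, as did the dimmer Gstm3 (3.0 to 16.2) and Gstm4 (22.8 to 45.8). Mu class genes are alike in sequence, and the probe set used for Gstm1 is of a type that may also bind relatives. A second probe set without that suffix gave 1.61 and -1.61 for the same differences.

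Gsto1, the omega class enzyme that reduces dehydroascorbate and methylated arsenic, was lowest in the PAX8PPARg placebo pool. It read 1374.9 on WT placebo, 800.7 on WT RU486, 509.5 on PAX8PPARg placebo and 2035.8 on PAX8PPARg RU486. The RU486 difference was 2.10 in PAX8PPARg and -0.77 in WT, and a second probe set gave 2.11 and -0.88. Gstz1, the zeta class enzyme of tyrosine breakdown, was instead highest in the PAX8PPARg placebo pool, with 214.6, 152.2, 690.8 and 256.3, an RU486 difference of -1.24 in PAX8PPARg and a genotype difference of 1.43 under placebo.

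The pi class did not move past 2-fold. Gstp1, known as a marker of human tumours, read 2606.2, 3191.8, 2678.9 and 2360.8, within 2-fold in all 4 comparisons, and Gstp3 read 27.8, 26.1, 52.1 and 67.6. In the theta class, which handles small halogenated compounds, Gstt1 was higher in PAX8PPARg under placebo (1.22), with 86.1 and 116.0 in WT against 255.5 and 236.8. Gstt3 read 280.8 on WT placebo, 70.9 on WT RU486, 317.0 on PAX8PPARg placebo and 238.0 on PAX8PPARg RU486, low in the WT RU486 pool by a difference of -1.77. Luminal markers were low in that pool too, and their part in the Gstt3 result was not tested. The 3 theta genes, all on chromosome 10, thus differed among themselves, and Gstt2 stayed within 2-fold at 56.4 to 112.3.

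Across the pair of RU486 comparisons, which share no array, 4 members were lower past 2-fold in both genotypes: Cyp2e1, Cyp2f2, Cyp39a1 and Gsta3. That is 6.90% of members, against 1.64% of all genes. Adipocyte markers were also lower past 2-fold with RU486, 5 of 12 in WT and 12 of 12 in PAX8PPARg, with 0 higher in either. Their part in the values of these 4 members was not tested. In PAX8PPARg, Cyp2f2 (-1.01) and Gsta3 (-1.05) were only just past 2-fold, and the WT RU486 value of Gsta3 was within the background range. No member was higher in both (0 of 58, against 1.01% of all genes). Gsta4 was lower in WT and higher in PAX8PPARg, and Cyp2d22 and Cyp4v3 were higher in WT and lower in PAX8PPARg. The RU486 difference itself differed between the genotypes by at least 4-fold for 9 of 58 members (15.5%), and for 9.99% of all genes.

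Agreement between probe sets was checked for members past 2-fold. Over the 4 comparisons, 15 differences could also be read by another probe set that was above the background range on all arrays. In 15 of 15 the sign was that of the probe set used, with 11 also past 2-fold. The same probe set was read in several comparisons for Cyp1b1, Cyp4v3, Gsto1 and Gstm1. Because these comparisons also share arrays, the 15 differences are not independent. The share of such agreement among all genes is not given here. The spread between probe sets of the same gene was 0.356 log2 (SD over 9507 probe sets of 3686 genes), and differences of this size or less are not read here as differences.

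Additive limma fits of genotype and treatment over the 4 arrays had 1 residual degree of freedom, which holds the interaction. They called 0 of 11234 genes (0.00%) and 0 of 58 members at an adjusted p below 0.05 for RU486, and the lowest adjusted p among members was 0.923. For genotype they also called 0 genes (0.00%), with a lowest adjusted p of 0.966 among members in limma. Before adjustment, 541 genes (4.82%) and 6 members (10.3%) had a p below 0.05 for RU486, and 414 genes (3.69%) and 3 members (5.17%) for genotype. With a pseudocount of 1 these member counts were 10 (17.2%, against 5.53% of all genes) for RU486 and 9 (15.5%, against 4.17%) for genotype. Without centring the count for genotype was 7 (12.1%, against 3.89% of all genes). The 6 members were Cyp39a1, Cyp2e1, Gsta3, Cyp2f2 and Cyp4b1, with lower fitted values under RU486, and Cyp2c38, with a higher one. For genotype they were Cyp4b1 and Gstt1, higher in PAX8PPARg, and Cyp27a1, lower.

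Pathways that feed or follow these enzymes showed few shared differences. Of 13 NRF2 targets outside the members, 0 were higher and 2 lower past 2-fold with RU486 in WT, and 1 was higher and 2 were lower in PAX8PPARg. For this list and those below, the shares of all genes were 8.20% higher and 9.79% lower in WT. In PAX8PPARg they were 9.93% and 7.81%. Gclm, the regulatory subunit of glutathione synthesis, was lower in both genotypes, reading 616.3 on WT placebo, 260.3 on WT RU486, 1012.8 on PAX8PPARg placebo and 401.8 on PAX8PPARg RU486. Me1, which makes NADPH and is also a gene of fat synthesis, read 1309.6, 477.7, 2954.1 and 554.7. Hmox1, the haem oxygenase induced by NRF2, stayed within 2-fold at 458.2 to 671.8. Of 11 genes of glutathione synthesis and recycling, 0 were higher and 1 was lower with RU486 in WT, and 1 was higher and 1 lower in PAX8PPARg.

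Among 11 kept genes for other conjugating enzymes, 3 were higher and 3 lower past 2-fold with RU486 in WT, and 2 were higher and 3 lower in PAX8PPARg. Mgst1, a microsomal glutathione transferase outside the naming rule, read 3904.1 on WT placebo, 773.8 on WT RU486, 3405.0 on PAX8PPARg placebo and 3741.0 on PAX8PPARg RU486, low on the same array as Cyp1b1 and Ephx1. Luminal markers were low on that array too, and their part in the Mgst1 values was not tested. The sulfotransferase gene Sult1a1, which conjugates phenols, read 134.0, 302.4, 647.9 and 84.9, with RU486 differences of 1.09 in WT and -2.58 in PAX8PPARg. Its order was that of Cyp4v3 and Cyp2d22 at the high end, with PAX8PPARg placebo highest and WT RU486 next.

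Of 16 kept nuclear receptor and sensor genes of these pathways, 1 was higher and 0 lower with RU486 in WT, and 2 were higher and 1 was lower in PAX8PPARg. Pparg read 75.9, 35.4, 497.5 and 13.2 in the order above, the last within the background range. It was not tested here whether its probe set detects the fusion transcript. Vdr, the vitamin D receptor, stayed within 2-fold at 332.8 to 645.3. Nr1i2 and Nr1i3, the receptors that drive CYP2B and CYP3A genes in liver, were within the background range on 3 and on 4 arrays respectively.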

How the data were processed

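The authors deposited 1 linear signal (intensity) per probe set for each of 4 Affymetrix arrays. No source used here names the software behind these signals. After trimming 2% at each end, mean signals lay between 500.15 and 500.20, which is what a common scaling gives. Of 22690 probe sets, 64 were controls. Of the others, 20380 had 1 gene symbol in the platform annotation and were used, 691 had several and 1555 had none. All 86 members matched a RefSeq gene by gene ID.

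Signals were transformed as log2(signal + 16) and centred on the median of the non-control probe sets of each array. "At least" folds are ratios of the deposited signal to the highest of the 27 bacterial control signals on the dim array. Where the range of the bright array was wider than that of the dim array, such a ratio is no lower bound. The members and lists were chosen with earlier results of these data known. In the threshold of the background rule, Cyp2c23 and Cyp4a14 were just outside, with highest ratios to that signal of 0.94 and 0.938, and Cyp2c54 and Cyp4a12a just inside, both at 1.05.

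The genes named with all values were the AhR group, the 6 highest and 6 lowest differences with RU486 per genotype, the 4 highest and 4 lowest per genotype comparison, each outside the background range on at least 1 of the 2 arrays, and the 6 brightest members. Others were named to complete a role group or were picked after their values were seen. Gene lists were described by counts and medians, among them B and T lymphocyte markers (11 of 11 lower with RU486 in PAX8PPARg, 0 of 11 in WT), endothelial markers (6 of 10 and 0 of 10 lower) and fibroblast markers (2 of 10 and 3 of 10 lower).

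Additive models were fitted with limma and Benjamini-Hochberg adjustment over 11234 genes, and were tested on simulated data. The versions were limma 3.58.1 in R 4.3.3, and Python 3.11.15 with pandas 2.3.3. The alternatives were other pseudocounts, no centring, quantile normalization, averaged probe sets, other filters and a variance trend.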

Additional observations from a re-analysis of the deposited data

Results flagged for a closer look

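The RU486 differences of 3 members pointed in opposite directions in the genotypes, each at least 2-fold. The PAX8PPARg difference minus the WT difference was 6.00 log2 for Gsta4, -2.71 for Cyp4v3 and -2.46 for Cyp2d22. With 1 array per group this contrast was not tested. Among all genes, 2.24% were lower in WT and higher in PAX8PPARg, as Gsta4 was, and 1.18% had the reverse pattern.

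Probe sets with several gene symbols were left out of the report, and 3 of the 5 that belong to these families were above the background range on at least 1 array. The probe set shared by 3 symbols that include the alpha class of glutathione transferases had signals of 178.2 on WT placebo, 9.4 on WT RU486, 27.8 on PAX8PPARg placebo and 197.2 on PAX8PPARg RU486, of which the WT RU486 value was within the background range. A probe set shared by CYP4 genes read 138.1, 282.9, 155.5 and 135.5 in the same order. A probe set shared by CYP2 genes reached 10.5 on WT placebo, just above the range there, and was within it elsewhere.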

How the results depend on the processing

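Of 114 recomputed counts and medians, 90 stayed within 1.5 times the reported count, or within the probe set spread for a median. The 114 include the limma counts of members, which were 0 throughout. Of 540 recomputed differences of single named members, 53 moved by at least the probe set spread. A reversal of sign was looked for only in the 46 differences past 2-fold, and none was found. The order of comparisons here is RU486 in WT, RU486 in PAX8PPARg, genotype under placebo and genotype under RU486. With a pseudocount of 1, members past 2-fold were 5 higher and 21 lower, 16 higher and 14 lower, 14 higher and 11 lower, and 26 higher and 6 lower, and the last median was 0.74. The shares of all genes were then 12.4 and 13.8%, 13.7 and 11%, 8.54 and 9.13%, and 15.3 and 14.2%. With a pseudocount of 64, 0 were higher in the first comparison, 4 higher in the second, and 9 higher and 1 lower in the last, against 4.35, 4.49, 6.48 and 7.22% of all genes, and 13 of 46 single differences fell below 2-fold. Without centring 5 were higher in the second comparison (all genes 7.92%), and with averaged probe sets 4 were lower in the last (all genes 10.0%). With members above the background range on all 4 arrays (31 of them), 5 were higher in the second comparison and 10 in the last (all genes 7.33 and 8.89%). With members at or above the median level of all genes (17 of them), 1 was higher and 5 were lower in the first, 4 higher and 4 lower in the second, 3 lower in the third, and 7 higher and 1 lower in the last, against 5.5 and 8.26, 5.12 and 5.15, 4.42, and 7.23 and 10.3% of all genes. The last 2 settings hold fewer members. For the other settings the cause was not tested. limma called 0 genes in each alternative run, with 278 to 621 genes for RU486 and 274 to 469 for genotype at an unadjusted p below 0.05. The lowest adjusted p over these limma alternatives was 0.889 to 0.97 and 0.938 to 0.982. No paired analysis was possible because each group holds 1 array, and no array could be left out because 3 arrays leave no residual degree of freedom. Members with signals near the background range have differences that are not exact.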
